A study of Mus musculus with 6 samples.

Results

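The 47 genes described here belong to the microtubule motor families: kinesin heavy chains, kinesin light chains and the subunits of cytoplasmic dynein. They were all gene symbols of a mouse brain count table that begin with Kif and a digit, Klc and a digit, or Dync, and that had at least 10 counts summed over 6 libraries, 47 of 24411 genes. The pattern matched 51 symbols. The member with the fewest counts was Kif2c (194), and the 4 symbols left out were Kif16bos (6 counts), Kif12 (3 counts), Kif2b and Kif4-ps (0 counts each). One member, Kif1bp, encodes a protein that binds kinesins and is no motor chain itself.

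The libraries come from RiboTag mice, in which Cre makes cells produce the ribosomal protein Rpl22 with an HA tag. An antibody to the tag then collects the ribosomes of recombined cells together with the RNA bound to them. Control mice had the genotype NG2CreERTM;Rpl22HA/+, and AnkG icKO mice had NG2CreERTM;Ank3F/F;Rpl22HA/+, in which Ank3, which encodes the scaffold protein ankyrin-G of the cell membrane, is floxed; icKO stands for inducible conditional knockout. All mice, controls included, carried the inducible Cre and the tagged allele, and all received tamoxifen at 100 mg/kg per day for 5 days from 8 weeks of age. Brains were taken 1 month later. Each library came from a pool of 3 whole brains. Each genotype had 1 input library, made from the whole homogenate, and 2 IP libraries, made from the immunoprecipitated RNA, which gives 4 groups. The NG2 driver is active in oligodendrocyte precursors, whose recombined descendants include myelinating oligodendrocytes, and in pericytes. The titles call the IP libraries of a genotype biological replicates, without saying which mice went into each pool. One of the icKO IP libraries, replicate 1, is titled cKO; its genotype label, AnkG icKO, placed it in the group.

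Kinesins carry cargo mostly towards the plus ends of microtubules, and cytoplasmic dynein carries it towards the minus ends. In axons this is the machinery of anterograde and retrograde transport. In oligodendrocytes, microtubule motors move organelles and RNA granules, including those with the myelin basic protein mRNA, out into the processes that wrap axons. Another set of kinesins builds and moves the spindle of dividing cells and is made mainly while cells divide.

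The 6 libraries held between 18968806 and 23930812 counts each, so that 3 counts equalled 0.125 to 0.158 CPM, the count scaled to library size. Levels below are CPM scaled with TMM factors over all 6 libraries, and levels are compared between genes only per kb of the longest annotated transcript. Ank3 was at 381 CPM in control input and 347 in icKO input, against 1389 and 1359 in control IP and 1163 and 1167 in icKO IP. This level checks the labels only weakly, because the count takes in the whole gene and not just its deleted part. Over all genes tested, 34.2% were higher and 34.2% lower in IP than input. Markers of oligodendrocyte precursors (15 of 16), mature oligodendrocytes (16 of 16) and pericytes and smooth muscle (12 of 12) were higher in IP than input. Markers of neurons (16 of 16), astrocytes (12 of 12) and microglia (12 of 12) were lower, but none of these lists was absent from the IP: the neuron markers summed to 3185 and 3225 CPM in the control IPs, 3647 and 3593 CPM in the icKO IPs, and 13290 and 13750 CPM in the control and icKO inputs. Neuron markers were thus still counted in every IP library, and several of the motors below are abundant in neurons.

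As a whole the motor genes took nearly the same share of counts everywhere, 1.33% and 1.34% in control and icKO input, 1.25% and 1.26% in control IP, and 1.25% and 1.26% in icKO IP. Behind this even share, single genes differed widely. All 47 passed the filter on low counts in every comparison. Between IP and input, 29 were higher and 12 lower in edgeR's quasi-likelihood test (Benjamini-Hochberg adjusted p under 0.05 over all genes tested), 61.7% and 25.5% of the members, where 34.2% of all 15936 genes were higher and 34.2% lower, 68.4% in all. Between icKO IP and control IP, 18 were higher and 5 lower, where 22.1% of all 15069 genes were higher and 25.2% lower. The members called in either direction were 48.9% of the 47 against 47.2% of all genes, so that the number of changed motor genes was near the background and the direction was not, at 38.3% higher and 10.6% lower. The median log2 change of the members was 0.61 between IP and input and 0.13 between the genotypes, against 0.02 and 0.0033 over all genes tested. The counts depended on the scaling: with library totals in place of TMM, which moved the median of all genes to -0.083, 10 members were higher and 10 lower between the genotypes, with a median of 0.04. The share of higher calls was then 50% among members and 32.6% among all genes, against 78.3% and 46.7% with TMM. The 11 kinesins of dividing cells, described below, were set apart after the values were seen. Of the other 36 members, 11 were higher and 5 lower between the genotypes with TMM, 30.6% and 13.9%, with a median of 0.07. Between IP and input 18 of these 36 were higher and 12 lower, 50% and 33.3%, with a median of 0.27. The 2 comparisons share the IP libraries, so their results are not independent.

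**Figure D1:**
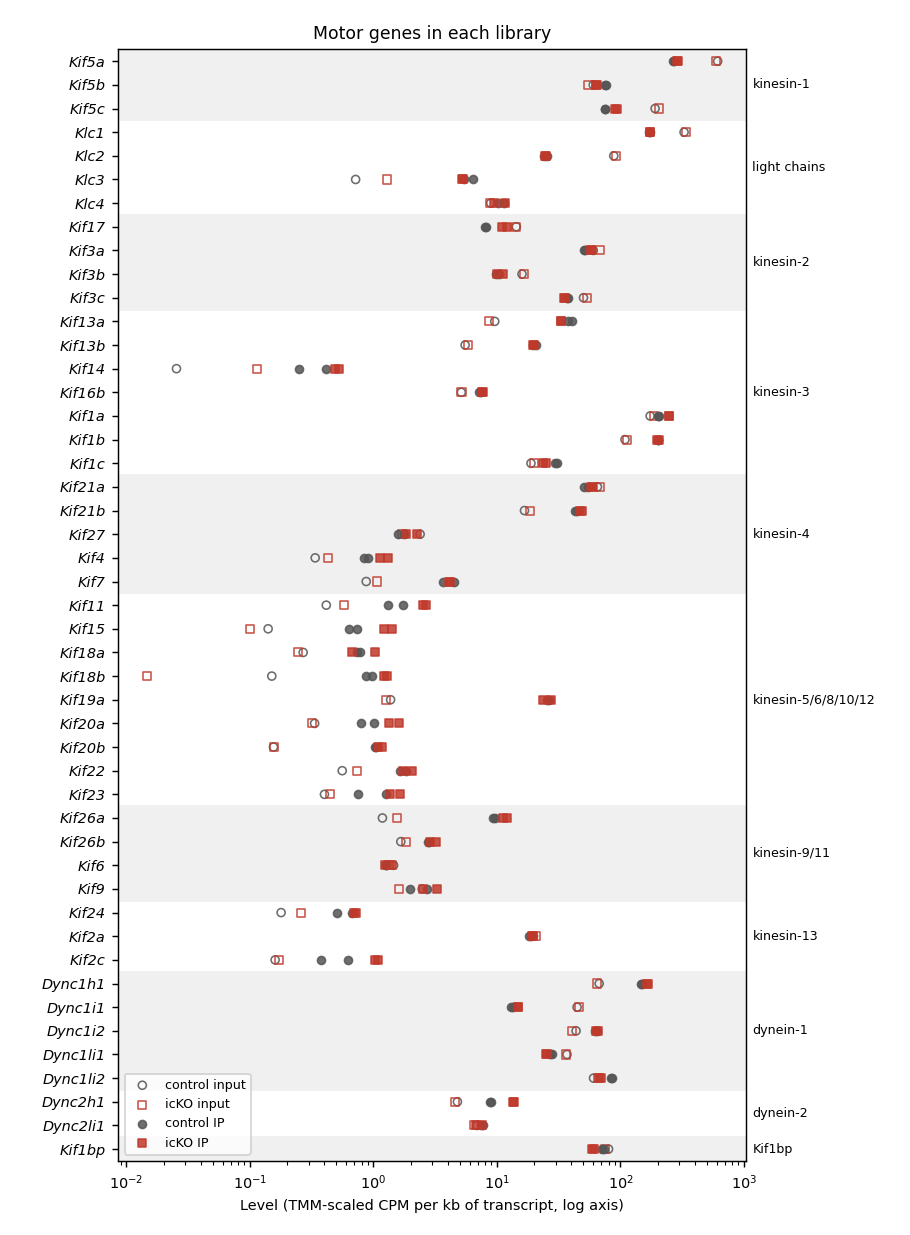
Level of each of the 47 motor genes (rows, grouped by family) in TMM-scaled CPM per kb of transcript on a log axis; each point is 1 library, open for input and filled for IP, circles for control and squares for icKO. Kif5a has the highest level in every library, and the input and IP points lie apart for most kinesins of dividing cells and for Kif19a.

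**Figure D2:**
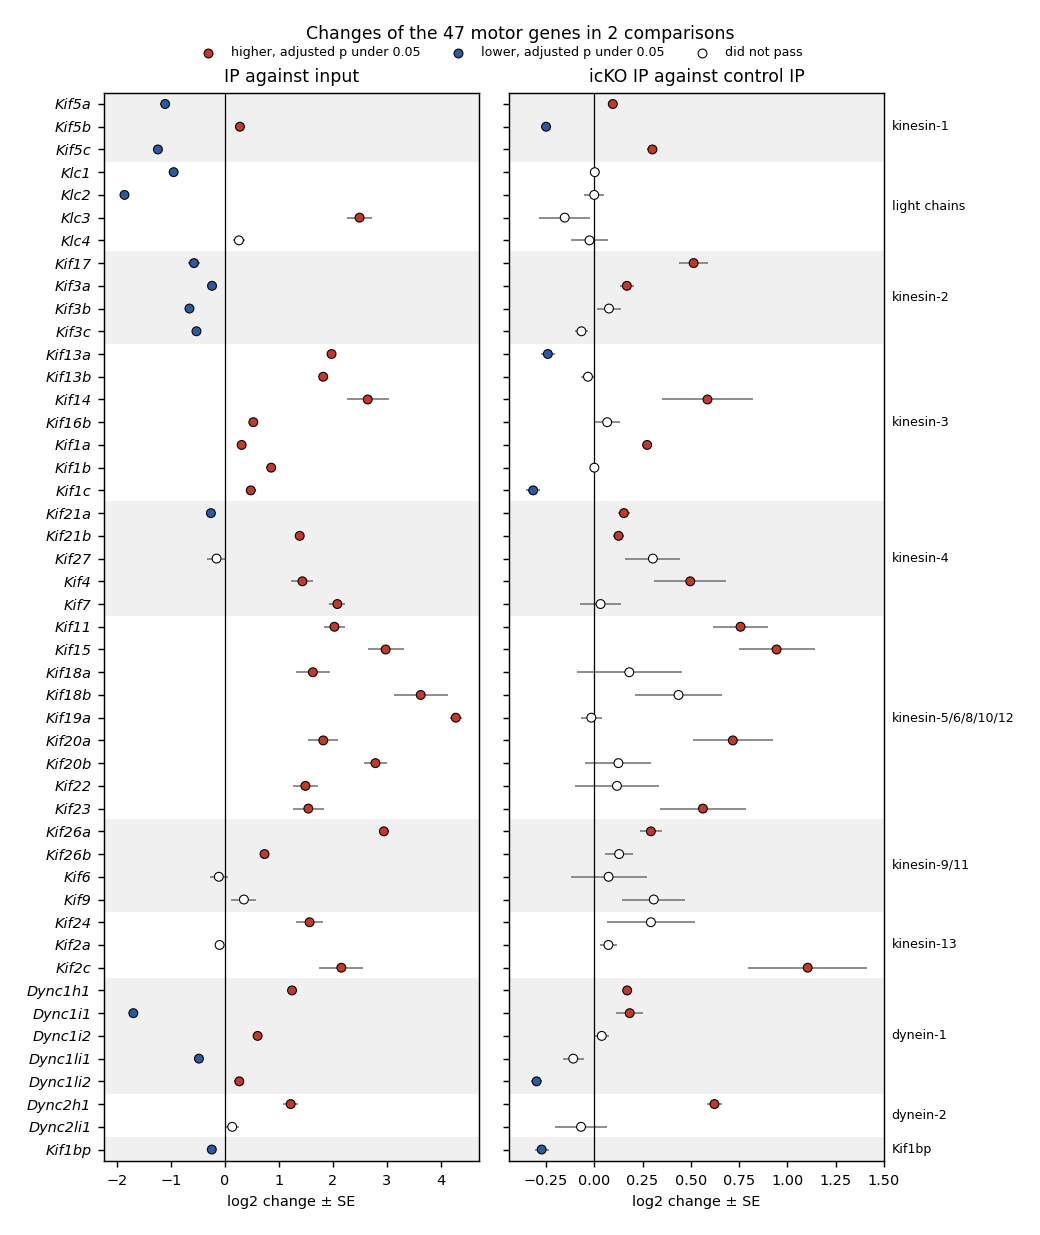
Log2 change of each motor gene between IP and input (left, 6 libraries) and between icKO IP and control IP (right, 4 libraries); points are fitted changes, bars are SE, and colours mark an adjusted p under 0.05. The 2 panels have different scales: changes against input reach 4.28 (Kif19a), and changes between genotypes reach 1.11 (Kif2c).

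Kinesin-1 is the main motor of fast anterograde transport, a dimer of Kif5 heavy chains that usually carries a pair of light chains. Its paralogs behaved in opposite ways. Kif5a, the neuron-enriched heavy chain (chromosome 10, 127225696 to 127263348, minus strand, mm10), was at 3854 CPM in control input and 3710 in icKO input, against 1688 and 1714 in control IP and 1793 and 1836 in icKO IP. Both inputs were above all 4 IPs, and the icKO IPs were above the control IPs. Kif5a was 2.15-fold lower in IP than input (log2 -1.11 ± 0.072 SE, edgeR adjusted p = 4.35e-07) and slightly higher in icKO than control IP (log2 0.10 ± 0.021 SE, 3.15e-04), a rise that did not pass with library totals (log2 0.0099) or with an offset for transcript length (0.01). Kif5c, the other neuron-enriched heavy chain, was at 1307 CPM in control input and 1399 in icKO input, against 516 and 517 in control IP and 624 and 646 in icKO IP. It too fell against input (log2 -1.24 ± 0.072 SE) and rose in the icKO IP (log2 0.30 ± 0.026 SE, edgeR adjusted p = 1.64e-11), with IP groups that did not overlap. Kif5b, the heavy chain made in most cell types, was at 363 CPM in control input and 328 in icKO input, against 449.8 and 465 in control IP and 387 and 381 in icKO IP. It went the other way, higher in IP than input (log2 0.28 ± 0.068 SE, edgeR adjusted p = 0.00421, but 0.05 and 0.505 with the length offset) and lower in the icKO than the control IPs (log2 -0.25 ± 0.028 SE, 5.69e-09).

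Counted per kb, Kif5b made up 6.97% and 6.41% of the 3 heavy chains in control and icKO input, 17.8% and 18.1% in control IP, and 14.6% and 14.1% in icKO IP. Kif5a remained the most abundant of the 3 in every library, at 64.1% to 70.9%. Several marker lists moved between the genotypes in IP too. Over all genes tested, 22.1% were higher and 25.2% lower in the icKO IP. Of the neuron markers 8 of 16 were higher and 3 lower in the icKO IP, with a median log2 of 0.08 and a summed level of 3185 and 3225 CPM in control and 3647 and 3593 CPM in icKO IPs. Of the astrocyte markers 7 of 12 were higher and 1 lower, with a median of 0.26 and sums of 1996 and 1997 CPM in control and 2105 and 2064 CPM in icKO IPs. Of the mature oligodendrocyte markers 16 of 16 were lower, with a median log2 of -0.77 and a summed level of 27210 and 27380 CPM in control and 16740 and 16630 CPM in icKO IPs. Of the pericyte and smooth muscle markers 11 of 12 were lower and 1 higher, with a median of -0.96 and sums of 2759 and 2785 CPM in control and 1901 and 1957 CPM in icKO IPs. Kif1a, Kif17 and Dync1i1, described below, rose in the icKO IP as well. The part of these markers in the motor values was not tested, and in bulk RNA fewer cells of a type and less RNA per cell cannot be told apart.

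The light chains, which couple kinesin-1 to cargo and hold it inactive without cargo, had no genotype call. Klc1 was at 819.6 CPM in control input and 856 in icKO input, against 429.9 and 438 in control IP and 430.4 and 438 in icKO IP, 1.93-fold lower in IP than input (log2 -0.95 ± 0.064 SE). Klc2 was at 279.7 CPM in control input and 293 in icKO input, against 76.8 and 81.0 in control IP and 79.4 and 78.1 in icKO IP, 3.63-fold lower (log2 -1.86 ± 0.064 SE), the largest fall of any member. For both, the inputs lay far above the IPs and the IP groups overlapped. Klc4 was at 20.7 CPM in control input and 20.6 in icKO input, against 26.4 and 23.6 in control IP and 22.1 and 26.8 in icKO IP, with no call against input (log2 0.26 ± 0.11 SE, edgeR adjusted p = 0.0532), although it passed with the length offset (0.0118), without the icKO input (0.0467) and without icKO IP replicate 1 (0.0314). The rare Klc3 rose 5.64-fold in IP, from 30 and 50 counts in the control and icKO inputs to 180 to 293 counts in the IPs, and 28.1% of its exon bases overlap the DNA repair gene Ercc2 on the other strand. Between genotypes the log2 changes were 0.0029 ± 0.027 for Klc1, -0.02 ± 0.096 for Klc4 and -0.15 ± 0.13 for Klc3 (SE), and that of Klc2 was 0.00 ± 0.052, none past the threshold.

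Kinesin-2 carries cargo in axons and inside cilia as Kif3a with Kif3b or Kif3c, while Kif17 works as a homodimer known for dendritic cargo. All 4 members were lower in IP than input. Kif3a was at 190.1 CPM in control input and 216 in icKO input, against 164 and 160.3 in control IP and 182 and 181 in icKO IP. Kif3b was at 89.8 CPM in control input and 93.7 in icKO input, against 55.2 and 58.3 in control IP and 56.2 and 63.4 in icKO IP. Kif3c was at 341 CPM in control input and 366 in icKO input, against 249.9 and 253 in control IP and 238 and 241 in icKO IP. For each of these 3 the inputs were above the IPs, and only for Kif3b did the IP groups overlap. Kif3a rose in the icKO IP (log2 0.17 ± 0.036 SE, edgeR adjusted p = 2.41e-04, but 0.0576 with library totals). In input, with 1 library per genotype, its log2 ratio was 0.17 as well. Kif3c did not pass (log2 -0.07 ± 0.032 SE, 0.0868), and 35.3% of its exon bases overlap the antisense gene 1110002L01Rik. Kif17 rose most, from 582 and 681 counts in the control IPs to 714 and 751 in the icKO IPs. Its level was 49.5 CPM in control input and 49.5 in icKO input, against 27.8 and 28.2 in control IP and 38.3 and 41.5 in icKO IP, so that the inputs were alike and the icKO IPs stood between the control IPs and the inputs (log2 0.51 ± 0.076 SE, edgeR adjusted p = 1.14e-06).

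**Figure D3:**
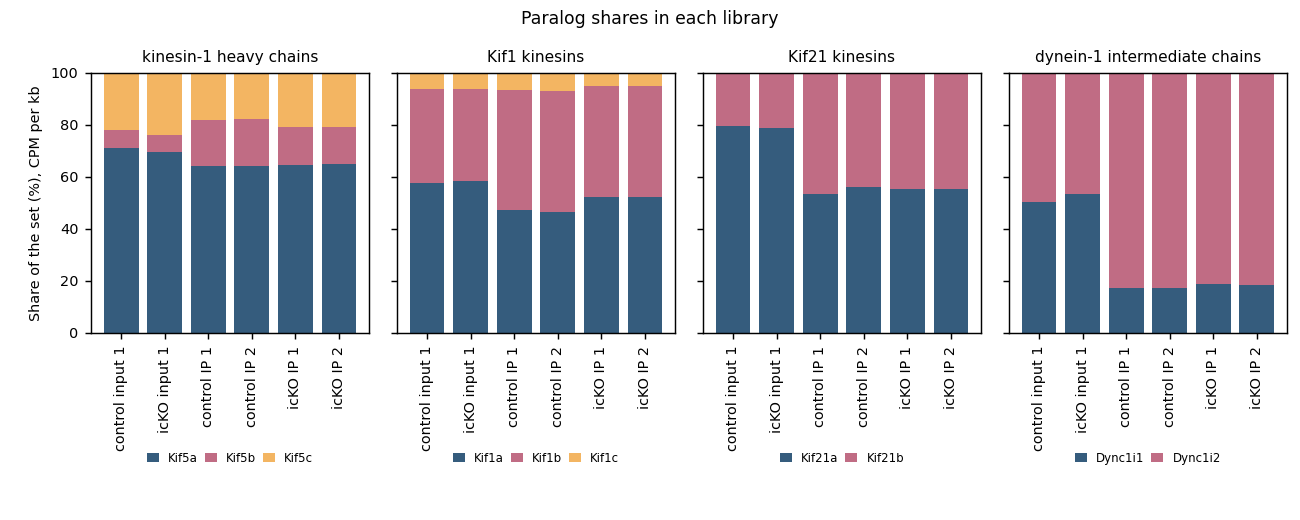
Share of each paralog within 4 sets of motor genes in each of the 6 libraries, as percent of the summed CPM per kb of the set. Kif5b rises from 6.41% and 6.97% in the inputs to between 14.1% and 18.1% in the IPs, and Dync1i1 drops from 50.5% and 53.3% to between 17.1% and 18.9%.

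Kinesin-3 motors move synaptic vesicle precursors, mitochondria, endosomes and lysosomes, and Kif1b is known from zebrafish to be needed for placing myelin basic protein mRNA in oligodendrocyte processes. All 7 members, among them Kif14 of dividing cells, were higher in IP than input. Kif1b (chromosome 4, 149176319 to 149307693, minus strand) was at 1114 CPM in control input and 1159 in icKO input, against 2069 and 2057 in control IP and 2079 and 2038 in icKO IP. Every IP was far above both inputs, 1.81-fold (log2 0.86 ± 0.072 SE, edgeR adjusted p = 2.79e-06), and the IP groups overlapped, with means of 2023 ± 8.85 CPM for control and 2024 ± 32.0 CPM for icKO (SD, n = 2 each, TMM factors of the 4 IP libraries). Its log2 change between genotypes was 0.0006 ± 0.021 (SE, edgeR adjusted p = 0.985), but -0.21 (5.76e-10) with the length offset and -0.09 (6.58e-04) with library totals, so that its direction rested on the setting. Kif1a, the neuron-enriched relative, was at 1427 CPM in control input and 1541 in icKO input, against 1694 and 1660 in control IP and 2025 and 2020 in icKO IP. Its IP groups did not overlap, with the icKO IPs the highest (log2 0.27 ± 0.021 SE, edgeR adjusted p = 8.24e-13), and its rise over input (log2 0.31 ± 0.074 SE) turned to -0.06 with the length offset.

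Kif1c, a more widely made member that carries integrins and dense-core vesicles, changed most in the other direction. It was at 126 CPM in control input and 132 in icKO input, against 198 and 206 in control IP and 158 and 166 in icKO IP. The control IPs were the highest, the icKO IPs lay between them and the inputs, and it had the largest fall of the members in the icKO IP (log2 -0.32 ± 0.037 SE, edgeR adjusted p = 1.29e-08). Kif13a, a carrier of recycling endosomes, and Kif13b, a carrier of membrane and polarity cargo, were both well above input. Kif13a was at 65.9 CPM in control input and 59.6 in icKO input, against 257 and 279 in control IP and 229 and 225 in icKO IP. Kif13b was at 49.0 CPM in control input and 51.2 in icKO input, against 175 and 184 in control IP and 177 and 174 in icKO IP. Kif13a was 3.94-fold above input and fell in the icKO IP (log2 -0.24 ± 0.035 SE, edgeR adjusted p = 1.03e-06). Kif13b was 3.54-fold above input and had no genotype call (log2 -0.03 ± 0.037 SE, 0.495), but passed as lower with library totals (log2 -0.12, 0.00825) and with the length offset (-0.20). Kif16b, an endosomal kinesin, was higher in IP (log2 0.53 ± 0.077 SE) without a genotype call (log2 0.07 ± 0.064 SE).

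In kinesin-4, whose members slow or stop microtubule growth, Kif21b stood out from its relative. Kif21a was at 419 CPM in control input and 441 in icKO input, against 329 and 354 in control IP and 374 and 384 in icKO IP. Kif21b was at 152 CPM in control input and 167 in icKO input, against 408 and 392.4 in control IP and 430.0 and 441 in icKO IP. Kif21a was a little lower in IP than input (log2 -0.26 ± 0.068 SE) and Kif21b 2.62-fold higher (log2 1.39 ± 0.07 SE), so that the share of Kif21b in the pair per kb went from 20.4% and 21.1% in the control and icKO inputs to 43.9% to 46.7% in the IPs. Both rose slightly in the icKO IP (log2 0.15 ± 0.032 SE and log2 0.13 ± 0.028 SE, edgeR adjusted p = 1.39e-04 and 4.23e-04), neither passing with library totals (0.0788 and 0.255), and Kif21b was at -0.05 with the length offset. Kif7, a regulator of Hedgehog signalling at the tip of cilia, was 4.24-fold above input (log2 2.08 ± 0.15 SE) and had no genotype call (log2 0.03 ± 0.11 SE). Kif27, its close relative, was at 12.2 CPM in control input and 8.80 in icKO input, against 9.02 and 8.06 in control IP and 11.5 and 9.45 in icKO IP and passed in neither comparison.

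Of the rarer motors, Kif19a had the largest rise against input. Kif19a (chromosome 11, 114765388 to 114790739, plus strand), a kinesin-8 known for setting the length of motile cilia, was at 4.72 CPM in control input and 4.33 in icKO input, against 87.5 and 89.8 in control IP and 81.3 and 93.9 in icKO IP. The inputs had 104 and 89 counts and the IPs 1517 to 2171, so the 19.4-fold difference (log2 4.28 ± 0.11 SE, edgeR adjusted p = 2.61e-09) does not rest on a few reads. Of 14 markers of ependymal cells and motile cilia tested, 3 were higher in IP and 8 lower, with a median log2 of -1.14. Over all genes tested, 34.2% were higher and 34.2% lower. The 3 higher markers were Dnah11 (log2 2.20), Foxj1 (1.22) and Dnah9 (1.06). The part of these markers in the Kif19a value was not tested. Kif26a, a kinesin-11 without motor activity that restrains growth factor signalling, was 7.71-fold above input, at 8.18 CPM in control input and 10.8 in icKO input, against 64.3 and 66.9 in control IP and 76.9 and 83.7 in icKO IP, and rose in the icKO IP (log2 0.29 ± 0.055 SE, edgeR adjusted p = 4.51e-05). Its relative Kif26b was higher in IP (log2 0.74 ± 0.086 SE), though at 0.09 (0.402) with the length offset, and had no genotype call (log2 0.13 ± 0.071 SE). The kinesin-9 genes Kif6 and Kif9 passed in neither comparison; Kif9 was at 7.90 CPM in control input and 5.11 in icKO input, against 6.30 and 8.60 in control IP and 8.04 and 10.5 in icKO IP. Kif2a, a kinesin-13 that takes microtubules apart in neurites, was at 105 CPM in control input and 110.0 in icKO input, against 99.2 and 97.0 in control IP and 104 and 101 in icKO IP, with no call in either comparison (log2 -0.10 ± 0.065 SE and log2 0.07 ± 0.046 SE). Kif24, a kinesin-13 of the centriole, was 2.97-fold above input without a genotype call (log2 0.29 ± 0.23 SE).

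There were 11 textbook kinesins of dividing cells among the members, Kif11, Kif15, Kif20a, Kif20b, Kif22, Kif23, Kif18a, Kif18b, Kif14, Kif4 and Kif2c. They separate spindle poles, align chromosomes or complete cell division. This group of 11 was put together after the values were seen. Promoter windows from RefSeq (GRCm38.p6, 250 bases before to 50 after the gene start) were matched for 10 of them and were searched on both strands for TTTGAA, read as TTCAAA on the opposite strand, the core of the cell cycle homology region found in promoters of genes made in late cell cycle, and for CCAAT, read as ATTGG on the opposite strand, the NF-Y motif. TTTGAA was in 9 of the 10 windows, in 3 of 32 windows of the other members and in 17.9% of all 32851 windows. CCAAT was in 6 of the 10, in 11 of the 32 and in 37.4% of all. The 80 bases before the start are shown for the 3 genes in which TTTGAA lies closest before it, at 17 or 19 bases, with both motifs in capitals:
Kif11 (chr19:37376302-37376381, plus strand): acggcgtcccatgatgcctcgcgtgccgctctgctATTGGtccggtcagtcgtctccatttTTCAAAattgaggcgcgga
Kif15 (chr9:122951001-122951080, plus strand): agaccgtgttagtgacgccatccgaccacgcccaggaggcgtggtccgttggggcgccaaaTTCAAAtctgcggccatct
Kif22 (chr7:127042421-127042500, minus strand): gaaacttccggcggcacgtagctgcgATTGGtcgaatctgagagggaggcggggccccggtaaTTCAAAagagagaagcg
In Kif18b, Kif20b, Kif23 and Kif4 the match lay after the start, at 3, 7 and 13, 2, and 19 bases. All positions are counted from the RefSeq start. The GENCODE M21 gene starts of Kif15 (122951046) and Kif22 (127042471, minus strand) lie inside the bases shown. Counted from those starts, the TTCAAA shown for Kif15 and Kif22 lies after the start. Kif18a had neither motif in its window. A match of these letters is a description of the sequence and no evidence of binding.

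All 11 kinesins of dividing cells were higher in IP than input, with a median log2 of 2.03, and 7 of 11 were higher in the icKO than the control IPs, with 0 lower and a median of 0.56. Over all genes tested, 34.2% were higher in IP than input, and 22.1% were higher and 25.2% lower in the icKO IP. Together the 11 kinesins made up 11.1 and 12.9 CPM in control and icKO input, 38.8 and 43.6 CPM in control IP, and 61.0 and 59.6 CPM in icKO IP. Kif11, the motor that pushes spindle poles apart (chromosome 19, 37376403 to 37421859, plus strand), had 44 counts in control input and 57 in icKO input, against 132 and 202 in control IP and 238 and 219 in icKO IP. Its IP groups did not overlap (log2 0.76 ± 0.14 SE, edgeR adjusted p = 5.23e-05). Kif15, which backs up Kif11 in the spindle, had 15 counts in control input and 10 in icKO input, against 75 and 75 in control IP and 110 and 125 in icKO IP. All icKO IPs were above all control IPs (log2 0.94 ± 0.20 SE, edgeR adjusted p = 1.70e-04). Kif23, a part of the centralspindlin complex of cytokinesis, had 30 counts in control input and 31 in icKO input, against 53 and 104 in control IP and 87 and 100 in icKO IP. The control IPs were unlike each other, and its call (log2 0.56 ± 0.22 SE, edgeR adjusted p = 0.0389) was lost without control IP replicate 1 (log2 0.24, 0.437), without icKO IP replicate 2 (0.44, 0.19), with DESeq2 (0.58, 0.15) and with library totals (0.48, 0.0812).

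The other calls of this group rested on few counts as well. Kif2c, which removes wrongly attached microtubules from chromosomes, had 10 counts in control input and 10 in icKO input, against 37 and 26 in control IP and 55 and 56 in icKO IP. It had the largest genotype change of all members (log2 1.11 ± 0.31 SE, edgeR adjusted p = 0.00344), not passing without control IP replicate 2 (0.77, 0.078). Kif20a, a motor of late cytokinesis, had 27 counts in control input and 24 in icKO input, against 61 and 89 in control IP and 111 and 89 in icKO IP (log2 0.72 ± 0.21 SE, 0.00504), with 29.3% of its exon bases overlapping Cdc23 on the other strand, and lost its call without icKO IP replicate 1 (0.57, 0.0784). Kif14 (log2 0.59 ± 0.23 SE, edgeR adjusted p = 0.0393) and Kif4 (log2 0.50 ± 0.19 SE, 0.0283) lost theirs with DESeq2 (0.15 and 0.131) and library totals (0.0791 and 0.0686); without control IP replicate 1 Kif14 was at 0.28 (0.4), and without icKO IP replicate 1 Kif4 was at 0.37 (0.229). Kif14 also missed without icKO IP replicate 1 (0.0548) or 2 (0.127) and with the length offset (0.152), and Kif4 without control IP replicate 2 (0.119). Kif18b had 11 counts in control input and 1 in icKO input, against 68 and 70 in control IP and 75 and 77 in icKO IP. Kif20b had 19 counts in control input and 18 in icKO input, against 121 and 141 in control IP and 113 and 119 in icKO IP. For both, the IPs were far above the inputs. Kif18a, Kif18b, Kif20b and Kif22 had no genotype call (0.18, 0.44, 0.13 and 0.12). The list of 16 other markers of dividing cells moved the same way: 11 were higher and 0 lower in the icKO IP, with a median log2 of 0.47, and they summed to 110 and 106 CPM in control IPs, 154 and 150 CPM in icKO IPs, and 18.7 and 23.97 CPM in the control and icKO inputs. Markers of oligodendrocyte precursors were mixed, with 1 of 16 higher, 12 lower and 3 not passing, and a median log2 of -0.17. The higher one was Cspg4 (0.08), and Pdgfra did not pass (-0.03). The largest falls were Lhfpl3 (-0.66), Olig2 (-0.57) and Olig1 (-0.55). Lrrc4c, among the lower ones, was also lower in IP than input (log2 -0.69). The shares over all genes tested were 22.1% higher and 25.2% lower. The part of either list in the kinesin values was not tested.

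**Figure D4:**
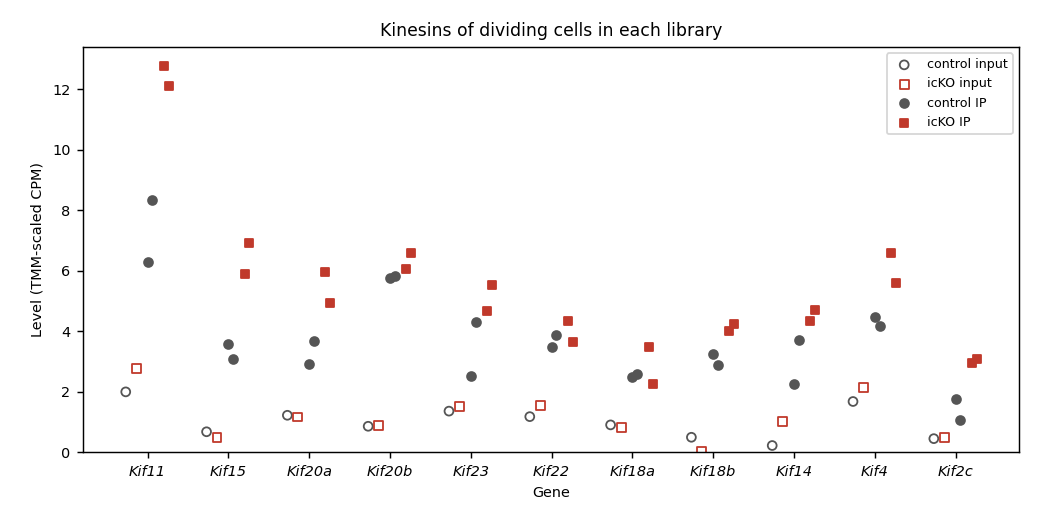
Level in TMM-scaled CPM of the 11 kinesins of dividing cells; each point is 1 library, open for input and filled for IP, circles for control and squares for icKO. The icKO IP points lie above the control IP points for Kif11, Kif15, Kif20a and Kif2c, among others, and overlap them for Kif18a and Kif22.

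Cytoplasmic dynein-1 is built on a pair of Dync1h1 heavy chains, each with an intermediate chain that binds dynactin and a light intermediate chain that binds cargo adaptors. Dync1h1 (chromosome 12, 110601452 to 110666945, plus strand) was at 964 CPM in control input and 931 in icKO input, against 2114 and 2129 in control IP and 2399 and 2365 in icKO IP. All IPs were more than 2-fold above the inputs (log2 1.25 ± 0.082 SE, edgeR adjusted p = 4.73e-07), and the icKO IPs were above the control IPs (log2 0.17 ± 0.02 SE, 1.61e-08). This genotype difference turned to -0.14 (1.33e-06) with the transcript length offset. Dync1h1 has a transcript of 14.3 kb, the longest of the members. The intermediate chains split. Dync1i1, the neuron-enriched chain, was at 121 CPM in control input and 126 in icKO input, against 35.2 and 36.3 in control IP and 40.6 and 40.5 in icKO IP, 3.24-fold lower in IP (log2 -1.70 ± 0.069 SE). Dync1i2, the widely made chain, was at 115 CPM in control input and 107 in icKO input, against 163 and 170.0 in control IP and 168 and 174 in icKO IP, 1.52-fold higher in IP (log2 0.61 ± 0.071 SE). Dync1i1 therefore made up 50.5% and 53.3% of the 2 chains per kb in the control and icKO inputs and 17.1% to 18.9% in the IPs. Between genotypes Dync1i2 did not pass (log2 0.04 ± 0.037 SE, edgeR adjusted p = 0.41), and Dync1i1 passed at log2 0.18 ± 0.071 SE (0.0321) but not with DESeq2 (0.122), library totals (0.265), no filter (0.0682) or without any one IP library (0.077 to 0.157).

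Of the light intermediate chains, Dync1li2 fell in the icKO IP. It was at 280.0 CPM in control input and 304 in icKO input, against 393 and 389 in control IP and 313 and 322 in icKO IP. The control IPs were the highest and the icKO IPs were close to the inputs (log2 -0.30 ± 0.029 SE, edgeR adjusted p = 2.34e-10). Its rise over input, log2 0.48 in control and 0.06 in icKO, was smaller in icKO, and the joint value (log2 0.27 ± 0.094 SE, 0.0277) did not pass without the control input (0.06, 0.151), without control IP replicate 1 or 2 (0.0835 and 0.0765), with library totals (0.141) or with the length offset (0.128). Dync1li1 was at 95.9 CPM in control input and 94.3 in icKO input, against 72.2 and 69.7 in control IP and 66.1 and 65.0 in icKO IP, lower in IP (log2 -0.48 ± 0.068 SE) and without a genotype call (log2 -0.11 ± 0.055 SE, edgeR adjusted p = 0.103), though lower with library totals (-0.20, 0.00369). The markers of mature oligodendrocytes and of pericytes and smooth muscle, given above, fell in the same libraries as Dync1li2, Kif1c, Kif13a and Kif5b, and their part was not tested.

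Dynein-2, the retrograde motor of cilia, had the largest genotype change outside the kinesins of dividing cells. Its heavy chain Dync2h1 (chromosome 9, 6928503 to 7184446, minus strand) was at 68.2 CPM in control input and 65.0 in icKO input, against 127 and 125 in control IP and 197 and 191 in icKO IP. The inputs were the lowest and alike, the control IPs were in between and the icKO IPs were the highest, with no overlap. The mean rose from 123.8 ± 1.38 to 190.6 ± 4.82 CPM (SD, n = 2 each, TMM factors of the 4 IP libraries), 1.54-fold (log2 0.62 ± 0.038 SE, edgeR adjusted p = 3.19e-15), and by a log2 of 0.32 with the length offset, which moves a transcript of 14.3 kb more than most. Its light intermediate chain Dync2li1 was at 9.31 CPM in control input and 8.80 in icKO input, against 10.0 and 10.4 in control IP and 10.3 and 9.12 in icKO IP and passed in neither comparison (log2 0.14 ± 0.12 SE and log2 -0.07 ± 0.14 SE). Wdr60, an intermediate chain of dynein-2 under its older symbol, rose from 42.9 ± 3.03 to 58.3 ± 1.76 CPM (log2 0.45 ± 0.065, edgeR adjusted p = 7.40e-07), and the other, Wdr34, did not pass (0.05 ± 0.11).

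Kif1bp, the partner protein that keeps several kinesins off microtubules, was at 209.9 CPM in control input and 198 in icKO input, against 187 and 192 in control IP and 159 and 155 in icKO IP. It was slightly lower in IP than input (log2 -0.24 ± 0.07 SE, edgeR adjusted p = 0.0113, but 0.0571 with the length offset and 0.0501 without icKO IP replicate 2) and lower in icKO than control IPs (log2 -0.27 ± 0.037 SE, 2.03e-07), with no overlap between IP groups.

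The partners of the motors were examined in 4 lists. Dynactin, the large complex that dynein needs for long runs, fell in the icKO IP: 9 of 12 genes were lower and 0 higher, with a median log2 of -0.23, where 25.2% of all genes were lower. Actr1a, which forms its filament, went from 166.2 ± 0.423 to 126.6 ± 1.97 CPM (log2 -0.39 ± 0.039, edgeR adjusted p = 3.15e-10), and Capzb, its barbed-end cap and a general actin capping protein, from 109.8 ± 2.91 to 84.2 ± 1.59 CPM (-0.38 ± 0.047). Dctn1, the subunit that binds microtubules, changed less, from 509.4 ± 5.92 to 466.5 ± 5.67 CPM (-0.13 ± 0.027). Of 6 tested light chains of dynein 4 were lower and 0 higher, 66.7% against 25.2% of all genes lower (median -0.44), led by Dynlt3 (-0.48 ± 0.077) and Dynll1 (-0.47 ± 0.061). Without the length offset the heavy chain Dync1h1 thus rose while most dynactin and light chain genes tested fell. Genes of the 4 partner lists were not followed through the alternatives, such as the length offset and library totals. Dynactin transcripts ran from 0.973 kb (Dctn3) to 4.321 kb (Dctn1), against 14.3 kb for Dync1h1, so the contrast cannot be told apart from the trend with length. The part of the mature oligodendrocyte and pericyte markers, which fell in the same libraries, was not tested.

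Of the regulators and cargo adaptors of dynein, 8 of 17 tested were higher and 3 lower, 47.1% and 17.6% against 22.1% and 25.2% of all genes (median 0.23). Nin, the centrosomal adaptor ninein, rose from 206.3 ± 4.55 to 302.1 ± 1.71 CPM (log2 0.55 ± 0.032, edgeR adjusted p = 8.32e-16), and Ccdc64, the older symbol of the Rab6 adaptor Bicdl1, from 34.6 ± 2.31 to 50.4 ± 3.04 CPM (0.54 ± 0.071). Nde1 (-0.46 ± 0.077) and Pafah1b1, the lissencephaly gene Lis1 (-0.17 ± 0.031), were the largest falls. Among kinesin partners and C-terminal kinesins, 6 of 19 were higher and 5 lower, 31.6% and 26.3%, near the shares over all genes (median 0.04). The mitotic kinesin Cenpe (0.53 ± 0.12) and Madd, an adaptor of Kif1a and Kif1b (0.42 ± 0.036), rose most, and the lysosomal GTPase Arl8a (-0.48 ± 0.049) and the scaffold Mapk8ip1 (-0.46 ± 0.030) fell most.

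Transcript length moved with these values. Over all 14933 genes tested with a length, the log2 genotype change in IP had a Spearman rho of 0.208 with length. Over all 47 members the rho was 0.14, and over the 36 members other than the kinesins of dividing cells it was 0.291. The kinesins of dividing cells were set apart after the values were seen. Each rho is a description across genes that share the 4 libraries. With an offset that removes the trend with length in each library, 13 members were higher and 9 lower in place of 18 and 5. Of all 15069 genes tested, 3010 were then higher and 3553 lower. The share of higher calls was 59.1% among members and 45.9% among all genes. Calls for a rise in Kif5a, Kif21a, Kif21b and Kif14 were lost, and Kif3c, Kif13b, Kif1b and Dync1h1 were called lower. Dync2h1, Kif1a, Kif5c, Kif17, Kif26a, Kif11 and Kif15 remained higher and Kif1c, Dync1li2, Kif5b, Kif13a and Kif1bp lower. Between IP and input, over 6 libraries, the rho was 0.173 over 15781 genes, 0.131 over the 47 members and 0.339 over the 36. There the offset gave 26 members higher and 12 lower in place of 29 and 12, with a median log2 of 0.37 in place of 0.61. Of all 15936 genes, 5434 were then higher and 5395 lower.

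**Figure D5:**
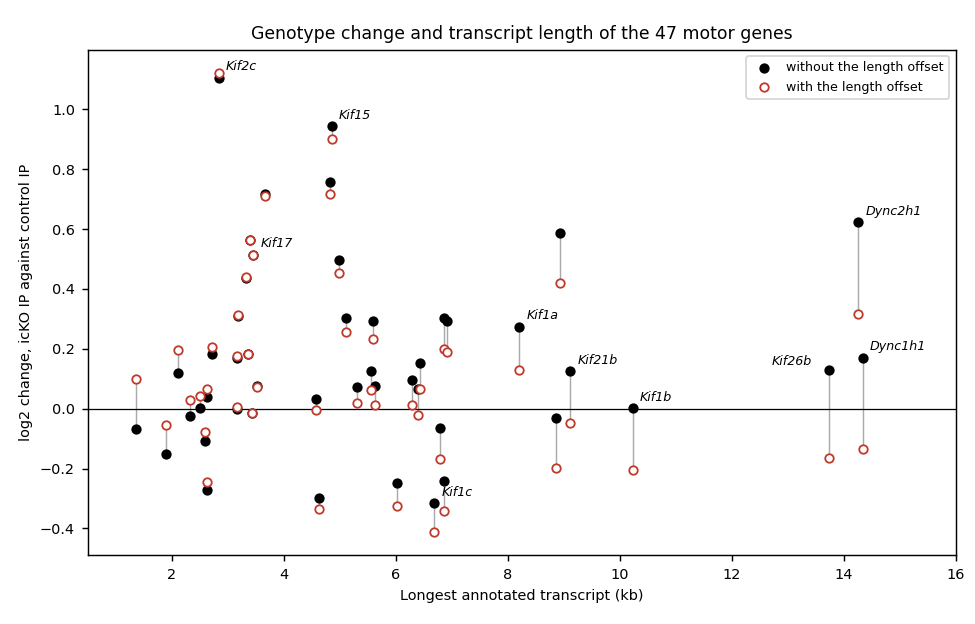
Log2 change of each motor gene between icKO and control IP against its longest annotated transcript in kb, without (black) and with (open red) an offset for transcript length in each library; a line joins the 2 values of a gene. The value of Dync1h1 goes from 0.17 to -0.14 and that of Dync2h1 from 0.62 to 0.32.

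In whole homogenate the ratios between genotypes were mostly small. The median log2 ratio of icKO to control input over the 47 members was 0.05, and 0.0014 over all genes with at least 10 counts in both inputs. With 1 library per genotype there is no replicate check and no test. The counting interval of the ratio excluded 0 for 22 members (95%, counting error only), 13 higher and 9 lower. The same count was not made over all genes, so it has no background to be read against. The interval narrows with the number of counts, so that abundant genes exclude 0 at small ratios, such as Klc1 at 0.051 (0.021 to 0.081). Abundant members had ratios such as -0.16 for Kif5b, 0.10 for Kif1a and 0.11 for Dync1li2. Kif14 (5 and 21 counts) and Kif18b (11 and 1 counts) gave the extremes, at 1.79 (interval 0.71 to 3.92) and -2.07 (-8.80 to -0.59).

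Whether the genotype change in IP differed from that in input was tested over the 4 groups, with 1 input library per genotype. Of the 47 members 13 passed, 9 with a change in IP above that in input and 4 with one below it, 19.1% and 8.51% of members, where 9.67% and 13.9% of all genes did and 23.6% passed in either direction. The members above included Dync2h1 (log2 difference 0.69 ± 0.079 SE, edgeR adjusted p = 9.44e-08), Kif17 (0.51 ± 0.12), Kif5c (0.20 ± 0.041) and Kif1a (0.16 ± 0.035). Those below were Dync1li2 (-0.42 ± 0.051), Kif1c (-0.39 ± 0.068), Kif1bp (-0.19 ± 0.061) and Kif3c (-0.17 ± 0.052). The length offset was not run for this difference, so the values of Dync1h1 and Dync2h1, with transcripts of 14.3 kb, were not followed through it. Of the kinesins of dividing cells only Kif18b passed, on 1 count in the icKO input. Some members called between the genotypes in IP had a ratio of the same sign in input and were not among the 13. For example, the log2 change in IP and the ratio in input were 0.17 and 0.17 for Kif3a. They were 0.13 and 0.12 for Kif21b, 0.29 and 0.38 for Kif26a, -0.24 and -0.16 for Kif13a, and -0.25 and -0.16 for Kif5b.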

How the data were processed

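RNA was sequenced from 6 mouse brain libraries with a stranded total RNA kit. Per the submitters' processing notes, the tools were Trimmomatic 0.39 for trimming and STAR 2.7.10b for alignment, with the build mm10. The counter, annotation and strand setting remain unknown (not given in the sources used here). The values deposited by the authors are raw read counts per gene symbol. Without a known strand setting, reads of a gene and of one overlapping it on the other strand cannot be told apart. Intervals cover counting error only.

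The counts were tested with edgeR 4.0.16 (R 4.3.3, limma 3.58.1) by the quasi-likelihood test with TMM factors, the edgeR filter on low counts by group, and Benjamini-Hochberg adjustment over all genes tested, at 0.05. Adjusted p-values given as alternatives come from the same edgeR test, or from DESeq2 1.42.0 where named. The genotype comparison used the 4 IP libraries (2 residual degrees of freedom), IP against input all 6 with a genotype term, and the difference of genotype changes all 4 groups. In the genotype comparison the spread of each gene was pulled towards that of all genes, with 29.7 prior degrees of freedom. Its p-values thus rest mostly on a spread shared across genes. SE was the log2 change divided by the root of F. Mean ± SD of IP groups uses factors of the 4 IP libraries. Input ratios are log2 of TMM-scaled CPM with a prior count of 2. Lengths are the longest GENCODE M21 transcripts. The fits were also run on simulated counts with the same spread set for all genes and libraries. Those runs do not test the spread of the lone inputs, the scaling or the trend with length.

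Replicates of an IP group differed by more than counting noise (a chi-square of 2.19 and 2.11 per degree of freedom in control and icKO). Alternatives were DESeq2, RLE factors, library totals, other filters, a length offset, a replicate block and leaving out each library. The replicate block was run only between the genotypes in IP. The difference of genotype changes was refitted only with library totals, at a mean of at least 5 CPM and without each IP library. Single genes of the partner and marker lists were not followed through any alternative. Named with values in every library were the main members of each family and the 5 largest rises and falls in each comparison; from each partner list the 2 largest rises and falls; Dctn1, Wdr60, Wdr34 and other members were chosen after their values were seen. The members and lists were chosen with earlier results of these data known. The 10 genes without an input value were left out.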

Additional observations from a re-analysis of the deposited data

Results flagged for a closer look

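The genotype change in IP differed from that in input in edgeR's test of the difference for 13 motor genes, out of 47. The log2 difference (change in IP minus change in input) was 0.69 for Dync2h1, 0.51 for Kif17, 0.22 for Dync1h1, 0.20 for Kif5c, 0.16 for Kif1a, 0.15 for Kif5a, 0.94 for Kif9, 0.77 for Kif27 and 3.64 for Kif18b. It was -0.42 for Dync1li2, -0.39 for Kif1c, -0.19 for Kif1bp and -0.17 for Kif3c. Each value rests on 1 input library per genotype, that of Kif18b on 11 and 1 counts in the control and icKO inputs. None was refitted with the length offset.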

How the results depend on the processing

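Between the genotypes in IP, 18 motor genes were higher and 5 lower; library totals gave 10 and 10, the length offset 13 and 9, and DESeq2 14 and 5. Leaving out each IP library gave 15 to 16 higher and 5 to 5 lower. Between IP and input 29 were higher and 12 lower, 18 higher at a mean of at least 5 CPM (35 members tested), and 28 to 30 higher and 11 to 13 lower when 1 library was left out. With the length offset 26 were higher and 12 lower. For the difference of genotype changes 9 were higher and 4 lower, with library totals 7 and 8, and with 1 IP library left out 8 to 9 and 3 to 5. The labels state no pairing of the IP libraries by replicate number. The correlation of replicate 1 minus 2 between genotypes was -0.00311, which shows no shared replicate effect but cannot exclude a pairing. The replicate block gave 18 higher and 5 lower. Where an arm had 1 library it was assumed to vary like the others. With the length offset, the sign turned between the genotypes in IP for Dync1h1 (-0.1362), Dync2li1 (0.099), Klc2 (0.0065), Klc4 (0.0304), Kif16b (-0.0212), Kif1b (-0.2054), Kif21b (-0.0467), Kif7 (-0.0038), Kif26b (-0.1649). With library totals, the sign turned between the genotypes in IP for Dync1i2 (-0.0473), Klc1 (-0.0834), Kif2a (-0.013), Kif3b (-0.0099), Kif16b (-0.0192), Kif1b (-0.0857), Kif7 (-0.0537), Kif6 (-0.0117). Without the filter, the sign turned between the genotypes in IP for Klc1 (-0.014), Kif1b (-0.0163). With DESeq2, the sign turned between the genotypes in IP for Klc2 (0.0048). With RLE factors, the sign turned between the genotypes in IP for Klc2 (0.0044). At a mean of at least 5 CPM, the sign turned between the genotypes in IP for Klc2 (0.0307), Klc4 (0.006), Kif19a (0.0158). With the replicate block, the sign turned between the genotypes in IP for Klc2 (0.0007). With the length offset, the sign turned between IP and input for Kif1a (-0.0638). With library totals, the sign turned for the difference of genotype changes for Dync2li1 (-0.0603), Kif2a (-0.0692), Kif3b (-0.0583), Kif16b (-0.0119). At a mean of at least 5 CPM, the sign turned for the difference of genotype changes for Klc4 (0.0183), Kif3a (0.0237), Kif21b (0.0254), Kif26b (0.0274). Leaving out 1 library each turned the sign between the genotypes in IP for Dync2li1 (-0.1619 to 0.0154), Kif13b (-0.0721 to 0.0038), Kif18a (-0.167 to 0.4552), Kif19a (-0.1217 to 0.083), Kif1b (-0.0165 to 0.0148), Kif22 (-0.0174 to 0.2364), Kif3b (-0.0128 to 0.1586), Kif6 (-0.0259 to 0.1671), Kif7 (-0.1201 to 0.1846), Klc1 (-0.0133 to 0.0134), Klc2 (-0.0393 to 0.0363), Klc4 (-0.168 to 0.1051). Leaving out 1 library each turned the sign between IP and input for Kif27 (-0.5225 to 0.2501), Kif9 (-0.0798 to 0.8545). Leaving out 1 library each turned the sign for the difference of genotype changes for Dync2li1 (-0.0821 to 0.0957), Kif18a (-0.0331 to 0.5896), Kif21b (-0.0443 to 0.0108), Kif26b (-0.0898 to 0.0639), Kif2a (-0.0212 to 0.0235), Kif3b (-0.0753 to 0.0956), Klc4 (-0.1621 to 0.1104). Of these, Dync1h1 and Kif21b between genotypes and Kif1a between IP and input were past the threshold before; the cause was not tested. Depth limits the kinesins of dividing cells, at 1 to 238 counts in single libraries.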
